A study of Mus musculus with 10 samples.

Results

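The late response of MC3T3-E1 cells to β-ecdysterone was measured in the 4 libraries of day 10, out of 10 libraries in the series. The 4 were chosen by their labels, as the cells kept for 10 days with 100, 150 or 200 μM β-ecdysterone and the cells kept equally long at 0 μM. MC3T3-E1 is a mouse line of osteoblast precursors from newborn skull, here of strain C57BL/6 and age newborn per the labels, and β-ecdysterone is a plant sterol. The cells were of the third passage and grew in standard medium, and poly(A) RNA was sequenced to compare gene expression with and without the sterol. The labels give bone marrow mesenchymal stem cells as the source, which is not the skull origin of the line, and state n = 3 for the RNA extraction. Each dose has a single library on each day in the table, so the 3 doses served as the treated replicates and 0 μM had 1 library. The doses were separate treatments, but whether the 4 cultures were started independently is not stated. The tests thus measure only the spread between these libraries.

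Osteoblasts mature from dividing precursors that leave the cell cycle, lay down a collagen matrix and then mineralize it. The transcription factors Runx2 and Sp7 (Osterix) drive this course, and BMP and Wnt signals feed into it. Alkaline phosphatase (Alpl) and bone sialoprotein (Ibsp) are made as matrix becomes ready for mineral, and osteocalcin (Bglap) and the Wnt inhibitor sclerostin (Sost) mark later stages.

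On day 10 the treated cells had more RNA of a part of the osteoblast, matrix and Wnt target genes than cells at 0 μM. They had less RNA of most tested genes in short lists for cell cycle, DNA replication, glycolysis and hypoxia, cholesterol and chemokines. Against the untreated library B-4 the median log2 differences of the cell cycle and replication lists turned, to 1.76 and 1.35. No gene of the cholesterol list fell against B-4. Depth was 31300928 counts at 0 μM and 27108562, 58218009 and 53666325 counts at 100, 150 and 200 μM. The library at 0 μM was thus deeper than that at 100 μM and shallower than the others. Levels are in CPM, the counts of a gene per 1000000 counts of its library, scaled by edgeR's TMM method. Differences are between log2 CPM at a dose and at 0 μM with a prior count of 2. A gene is said to rise or fall where it was more than 2-fold above or below 0 μM at all 3 doses. Of 17106 genes with enough counts, 2434 rose (14.2% of those tested) and 936 fell (5.47%). By edgeR's quasi-likelihood test of the 3 doses against 0 μM, 1898 genes (11.1%) were called higher and 994 (5.81%) lower, where a call took an adjusted p below 0.05 and an estimated change of more than 2-fold. These numbers depend on filter, unit and control. Asking for 10 counts in every library left 928 rises and 688 falls, and log2(FPKM + 1) gave 452 rises and 613 falls. The last changes unit and offset at once, and an offset of 1 FPKM flattens scarce transcripts, so the 2 cannot be told apart. With A-5 and B-4 added to 0 μM, the edgeR test called 543 genes higher and 117 lower. Both rules named 1710 genes higher and 820 lower. In this test the lone 0 μM library is assumed to vary like the treated ones. The median log2 difference over all tested genes was 0.05, and the median SD over the 3 doses was 0.18. Only 106 genes were more than 2-fold above 0 μM at 1 dose and more than 2-fold below it at another.

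Many rises were read from few counts at 0 μM. Of the 2434 genes that rose, 858 had 0 counts at 0 μM, 691 had 1 to 9 and 885 had 10 or more. A fall beyond 2-fold needs counts at 0 μM, so the same tally says nothing about the falls. Loci newly assembled by the authors, without a gene name, made up 915 of the rises and 122 of the falls. At every dose 1182 of the rises and 178 of the falls passed 4-fold, and 223 and 13 passed 16-fold. At a count of 0, up to 3 counts remain possible, which is 0.091 CPM at 0 μM and 0.113, 0.0539 and 0.0551 CPM at 100, 150 and 200 μM. This floor covers counting error only. Genes with fewer than 10 counts at 0 μM passed the count filter mainly through the treated libraries, where they are high. They were all 4 risen Wnt antagonists and all 3 risen adipocyte genes. Of the risen osteocyte, skeletal muscle and chondrocyte genes they were 3 of 4, 3 of 4 and 3 of 6. Of the risen BMP ligands, Wnt ligands, IGF and endothelial genes they were 2 of 3 in each list. Of the risen BMP antagonists they were 2 of 4, and of the risen Notch and cholesterol genes 1 of 2 in each list. The single rise among BMP receptors and Smads, Nrf2, hypoxia, and epithelial and neural genes was such a gene in each list. The counts of such lists describe these libraries and are no support for a change of the list. In bulk RNA, fewer cells of a type and less RNA per cell cannot be told apart.

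**Figure D1:**
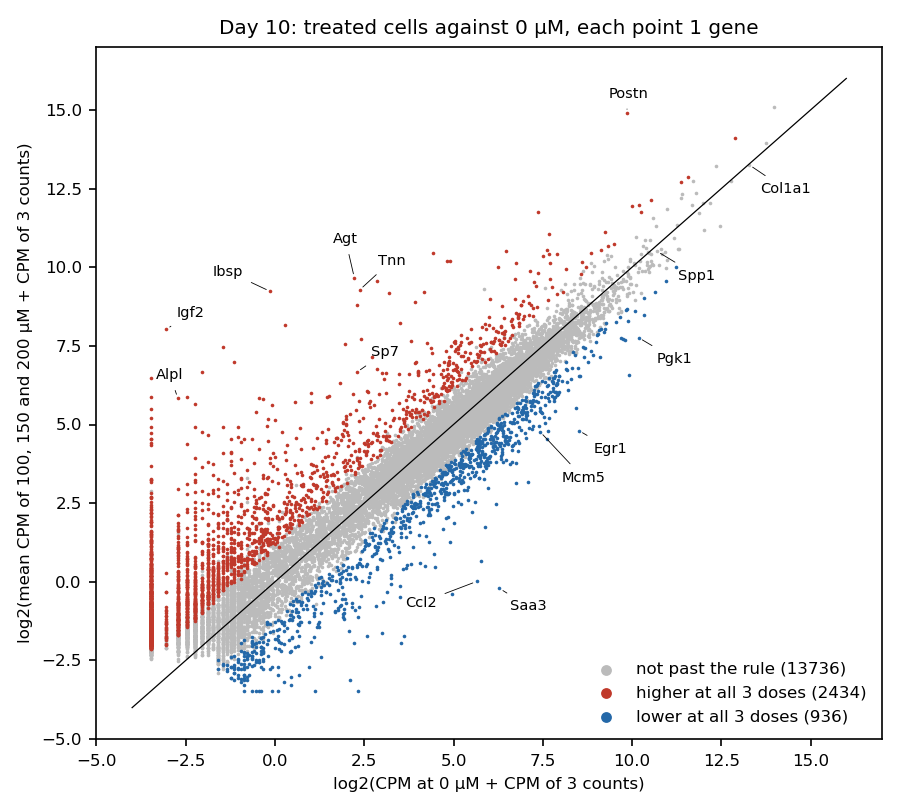
Each point is 1 of the 17106 tested genes, with log2 CPM at 0 μM on the x axis and the log2 of the mean CPM of the 3 doses on the y axis, both after adding the CPM of 3 counts. The 2434 red points rose and the 936 blue points fell at all 3 doses, and the column of red points at the left edge holds genes with 0 counts at 0 μM.

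The control matters for what follows. The series holds 2 more libraries, A-5 and B-4, labelled as untreated MC3T3-E1 cells with no day given, and they differ from 0 μM and from each other. With A-5 in place of 0 μM, 2173 of 17173 tested genes rose and 746 fell. With B-4, 2055 of 17209 rose and 653 fell. Of the 936 genes that fell against 0 μM, 220 rose against B-4, and 4 rose against A-5. Against each of the 3 controls, 841 genes rose and 56 fell. The treated libraries are shared by these comparisons. The 44 gene lists are therefore given against 0 μM first and then against A-5 and B-4, while pathways were counted against 0 μM only. List counts against each control are to be read beside the counts of all tested genes, against 0 μM 14.2% higher and 5.47% lower. Why the controls differ was not tested.

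The largest rises, by the smallest difference over the doses among genes averaging 5 CPM or more, were in genes nearly silent at 0 μM. Igf2 (ENSMUSG00000048583, chromosome 7, 142650766 to 142666816) encodes insulin-like growth factor 2, a growth factor stored in bone. It had 1 count at 0 μM and 7815, 14416 and 12384 counts at 100, 150 and 200 μM. Its level was 260.5 ± 33.8 CPM (SD, n = 3 doses), a ratio of 8588 (95% interval 1541 to 339200.0) from an exact Poisson interval of the 0 μM count. Alpl (ENSMUSG00000028766, chromosome 4, 137741733 to 137796384), the phosphatase that frees phosphate for mineral, had 2 counts at 0 μM and 50.3, 62.2 and 58.5 CPM at the 3 doses. Its mean gave a ratio of 939.9 (95% interval 260.2 to 7761). Both genes were far above 0 μM at every dose, and the doses lay close together. The other leading rises from 0 counts were Inpp5j (ENSMUSG00000034570, chromosome 11, 3494375 to 3504821), an inositol phosphate phosphatase, at least 400.5-fold higher at 41.5, 28.3 and 39.5 CPM, and Hif3a (ENSMUSG00000004328, chromosome 7, 17031507 to 17062427), a hypoxia-inducible factor subunit, at least 256-fold higher at 25.9, 21.4 and 22.6 CPM. Ramp1 (ENSMUSG00000034353, chromosome 1, 91179822 to 91225196), a partner of calcitonin-family receptors, reached 22.6, 59.5 and 52.2 CPM and was at least 492-fold higher. Bpifb1 (ENSMUSG00000027485, chromosome 2, 154190818 to 154220369) reached 20.9, 35.7 and 34.5 CPM and was at least 334-fold higher. Wfdc3 (ENSMUSG00000076434, chromosome 2, 164731180 to 164745931) was at least 638-fold higher but uneven, at 108, 21.1 and 45.3 CPM. These bounds set the mean of the doses against 3 counts in the 0 μM library. Tnfrsf19 (ENSMUSG00000060548, chromosome 14, 60963875 to 61046490), a receptor of the TNF family, went from 0.273 CPM to 144, 213 and 177 CPM. All but Wfdc3 also rose against A-5 and against B-4.

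The 8 largest falls included an acute phase protein and 2 chemokines. Saa3 (ENSMUSG00000040026, chromosome 7, 46711998 to 46715700), an acute phase protein, fell from 77.9 CPM at 0 μM to 1.28, 0.36 and 0.679 CPM at 100, 150 and 200 μM. The chemokine Ccl2 (ENSMUSG00000035385, chromosome 11, 82035571 to 82037453) fell from 50.1 CPM to 1.17, 0.845 and 0.734 CPM. Its neighbour Ccl7 (ENSMUSG00000035373, chromosome 11, 82045712 to 82047525), another monocyte attractant, fell from 30.8 CPM to 0.717, 0.899 and 0.386 CPM. No dose came near 0 μM for these 3 genes. Nfkbiz (ENSMUSG00000035356, chromosome 16, 55811375 to 55838899), an inducible regulator of NF-κB targets, fell from 135 CPM to 9.96, 8.02 and 8.52 CPM. The kinase-like gene Styk1 (ENSMUSG00000032899, chromosome 6, 131299142 to 131353597) went from 54 CPM to 1.55, 1.56 and 1.32 CPM, and Car9 (ENSMUSG00000028463, chromosome 4, 43506966 to 43513729), a carbonic anhydrase known as a target of hypoxia-inducible factors, from 59 CPM to 3.28, 2.68 and 3.82 CPM. Arnt2 (ENSMUSG00000015709, chromosome 7, 84246278 to 84410176), a partner of such factors, fell from 30 CPM to 2.45, 2.52 and 1.89 CPM. The immediate-early transcription factor Egr1 (ENSMUSG00000038418, chromosome 18, 34859823 to 34864984) fell from 365 CPM to 27.6, 23.2 and 32.8 CPM. The log2 fold changes by edgeR ran from -6.80 for Saa3 (adjusted p = 0.000168) to -3.71 for Egr1 (adjusted p = 0.000106). Saa3, Styk1, Ccl7 and Car9 also fell against A-5 and against B-4. Ccl2 and Nfkbiz fell against A-5 but not B-4, with smallest log2 differences of -0.58 and -0.24 there. Egr1 and Arnt2 turned with the control, since their smallest log2 differences against B-4, at the dose nearest the control, were 1.05 and 1.01. As CPM of the library total, Egr1 stood at 384 at 0 μM, 541 in A-5 and 11.9 in B-4.

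Among abundant transcripts the gains in CPM were largest for Postn, mt-Co1, Fn1, mt-Nd5 and mt-Cytb. Periostin (Postn), a matrix protein of bone surfaces, had 921 CPM at 0 μM and 31208, 34668 and 25121 CPM at 100, 150 and 200 μM. This was 32.9-fold over 0 μM on average, with a log2 fold change of 5.04 by edgeR (adjusted p = 0.000174). Fibronectin (Fn1) had 7536 CPM at 0 μM and 19875, 17225 and 15567 CPM at 100, 150 and 200 μM, 2.33-fold on average. Of the 13 protein-coding genes of the mitochondrial genome, 2 rose, among them mt-Nd5, at 3026 CPM at 0 μM and 6267, 9829.5 and 6512 CPM at 100, 150 and 200 μM. mt-Co1 had 16205 CPM at 0 μM and 26696, 47203 and 31573 CPM at 100, 150 and 200 μM and did not pass the rule at every dose, and neither did mt-Cytb, at 5194 CPM at 0 μM and 7907, 12196 and 8231 CPM at 100, 150 and 200 μM. Their summed share of counts was 4.53% at 0 μM and 6.7%, 10.6% and 7.47% at 100, 150 and 200 μM. The largest losses in CPM were in Lrp1, Fth1, Actb, Pkm and Flna. Of these, β-actin (Actb) fell, at 2388 CPM at 0 μM and 980.3, 1088 and 989.9 CPM at 100, 150 and 200 μM, and so did the glycolytic enzyme Pkm, at 1984 CPM at 0 μM and 889, 653 and 742 CPM at 100, 150 and 200 μM. Actb has many processed copies in the genome that can share its reads. The endocytic receptor Lrp1 had 5696 CPM at 0 μM and 3294, 2026 and 2285 CPM at 100, 150 and 200 μM, ferritin heavy chain (Fth1) 4122 CPM at 0 μM and 2160.1, 2656 and 2221 CPM at 100, 150 and 200 μM and filamin A (Flna) 2566 CPM at 0 μM and 1583, 1462 and 1516 CPM at 100, 150 and 200 μM, and none of these passed the rule. Postn alone of these rose against all 3 controls. Fn1, mt-Nd5, Actb and Pkm passed the rule against neither A-5 nor B-4, with mean log2 differences against B-4 of -0.08, 0.42, 0.06 and -0.46.

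**Figure D2:**
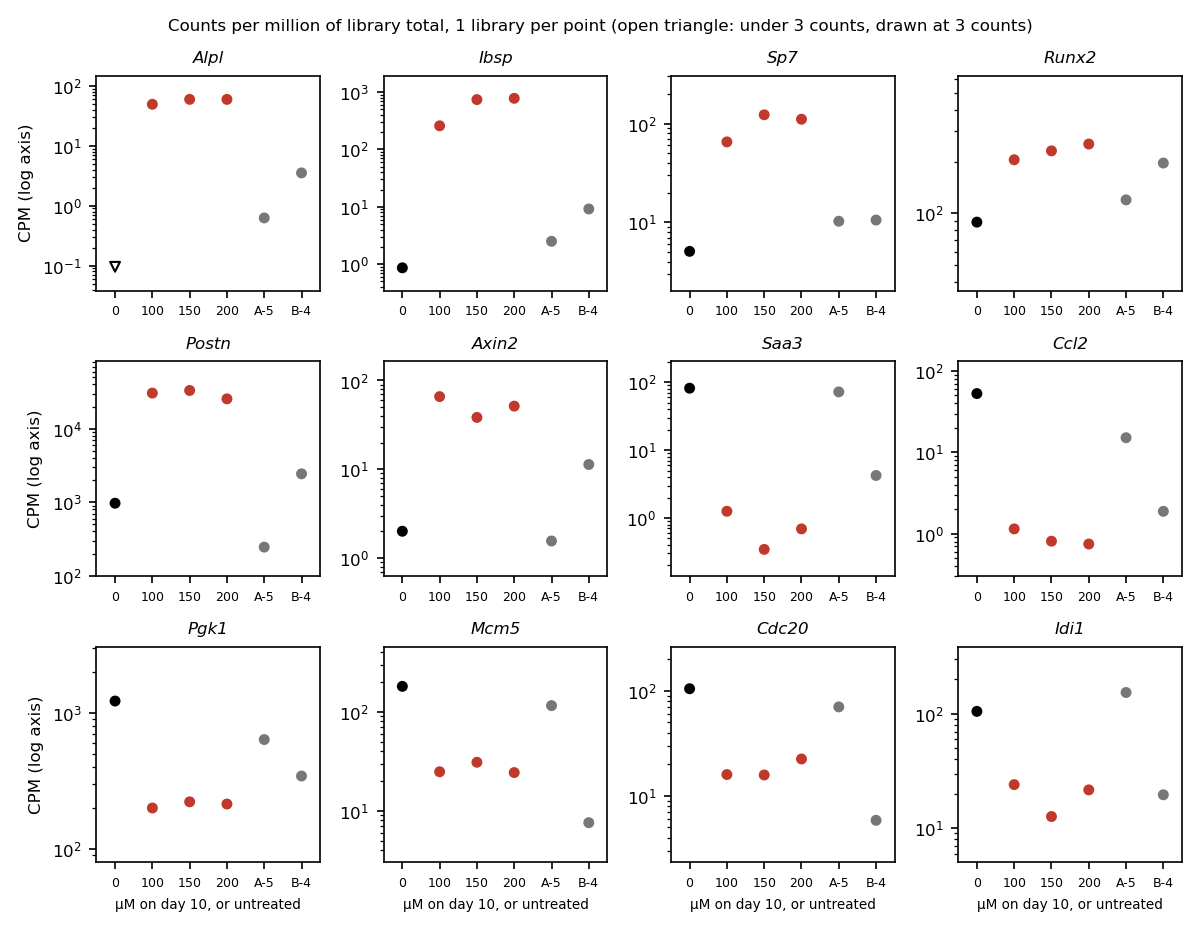
CPM of the library total on log axes for 12 genes, 1 library per point, with 0 μM in black, the 3 doses of day 10 in red and the untreated libraries A-5 and B-4 in grey. Alpl, Ibsp, Sp7, Postn and Axin2 are higher in the 3 treated libraries than in any of the 3 others, while Mcm5 and Cdc20 are lower than 0 μM and A-5 but higher than B-4.

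Osteoblast transcription factors moved in both directions. In a list of 14, 5 of 14 tested members rose and 2 fell, with a median log2 difference of 0.21. Sp7 had 4.82 CPM at 0 μM and 66.7, 128 and 109 CPM at 100, 150 and 200 μM, 21-fold on average, with a log2 fold change of 4.40 by edgeR (adjusted p = 0.000867). Runx2, which acts upstream of Sp7, had 84.5 CPM at 0 μM and 209.7, 242 and 249 CPM at 100, 150 and 200 μM, with a log2 fold change of 1.47 (adjusted p = 0.00139). The homeobox gene Msx1, kept in precursors, rose to 16, 17.5 and 25.9 CPM from 4.06 CPM, and the zinc finger gene Zfp521 to 112, 85.9 and 91 CPM from 28.4 CPM. Msx2, a homeobox gene known as a BMP target, fell from 6.43 CPM to 2.87, 2.3 and 2.57 CPM. Sp7 and Zfp521 also rose against A-5 and B-4. Runx2 did not, with mean log2 differences of 1.12 against A-5 and 0.33 against B-4, and Msx2 turned, with smallest differences of 0.55 and 1.60. For the list, 4 rose and 0 fell against A-5, and 4 rose and 0 fell against B-4.

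Of bone matrix and mineralization genes 50% rose, beside 14.2% of all genes, and this difference was not tested. In this list 10 of 20 tested members rose and 1 fell, and its median log2 difference was 1.34, 2.36 and 2.14 at 100, 150 and 200 μM. Of the risen members 3 had fewer than 10 counts at 0 μM. Ibsp, which seeds mineral in bone matrix, had 0.819 CPM at 0 μM and 264, 774 and 767 CPM at 100, 150 and 200 μM, 735-fold on average (adjusted p = 0.000962 by edgeR). The level at 100 μM was well above 0 μM and well below the higher doses. Osteomodulin (Omd), a proteoglycan of mineralized matrix, had 1.94 CPM at 0 μM and 78, 55 and 59.7 CPM at 100, 150 and 200 μM, and the receptor for parathyroid hormone (Pth1r) had 3.43 CPM at 0 μM and 47.8, 93.8 and 95.8 CPM at 100, 150 and 200 μM. Col1a1, the main collagen of bone, had 9948 CPM at 0 μM and 8519.7, 11034 and 9763 CPM at 100, 150 and 200 μM and did not change beyond the rule, with a log2 fold change of -0.03 (adjusted p = 0.932). It rose against the other controls, with smallest log2 differences of 1.09 against A-5 and 1.41 against B-4. Osteopontin (Spp1) had 1658 CPM at 0 μM and 1581, 1479 and 1312 CPM at 100, 150 and 200 μM, a log2 fold change of -0.19 (adjusted p = 0.438). The edgeR test called 9 members of the list higher and 1 lower. Alpl, Ibsp, Mepe and Pth1r rose against all 3 controls, while Omd did not, with a smallest log2 difference of -0.29 against B-4. For the list, 10 rose and 1 fell against A-5, and 8 rose and 0 fell against B-4.

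Of 9 osteocyte genes, 4 rose and 0 fell of 8 tested, with a median log2 difference of 1.65, and 3 of the risen genes had fewer than 10 counts at 0 μM. The median turned to -0.12 where 10 counts were asked of every library. Dmp1 and Pdpn, members named after their values were seen, did not pass the rule, at 56 and 3052 counts at 0 μM. Dmp1 had 10, 55 and 90 counts at 100, 150 and 200 μM, and Pdpn 1986, 2528 and 2440. The matrix phosphoglycoprotein Mepe had 3 counts at 0 μM and 22, 92 and 95 counts at the 3 doses, a ratio of 15.5 (95% interval 5.3 to 75.1). Sost had 0 counts at 0 μM and 5, 38 and 34 counts, which is at least 5.48-fold higher. Irx5, a homeobox gene, had 28.6 CPM at 0 μM and 135, 107 and 110.3 CPM at 100, 150 and 200 μM. Fibulin Fbln7 had 3 counts at 0 μM and 8, 38 and 24 at the doses, a ratio of 5.22 (95% interval 1.79 to 25.3), and edgeR did not call it (adjusted p = 0.0847). Mepe and Sost stayed far below Ibsp, at 0.875 and 0.29 FPKM against 334 FPKM at 150 μM, a unit that scales counts to transcript length. Against the untreated libraries, 3 rose and 1 fell against A-5, and 3 rose and 0 fell against B-4.

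BMP signals reach the nucleus through paired receptors and the Smad proteins, and secreted antagonists such as noggin and gremlin hold the ligands back. Bmp2 had 0 counts in each of the 4 libraries, so any level was under the floor of 3 counts and no fold can be given. Of 12 BMP ligands 6 could be tested, of which 3 rose and 0 fell. Bmp8b had 2 counts at 0 μM and 0.528, 0.575 and 0.514 CPM at the doses, a ratio of 8.89 (95% interval 2.46 to 73.4). Bmp8a had 0.121 CPM at 0 μM and 0.453, 1.42 and 1.23 CPM at 100, 150 and 200 μM, and these paralogs can share reads. Gdf6, which acts in joint formation, had 1.3 CPM at 0 μM and 5.17, 4.01 and 4.2 CPM at 100, 150 and 200 μM. The median log2 difference of the ligands was 1.60, or 1.07 with members at 0 counts set to their bound. It turned to -0.0457 where 10 counts were asked of every library. Among receptors and Smads 1 of 9 tested members rose and 0 fell, with a median of 0.35. This share of rises, 11.1%, was below the 14.2% of all genes. The endothelial-type receptor Acvrl1 had 3 counts at 0 μM and 14, 31 and 29 counts, a ratio of 5.93 (95% interval 2.03 to 28.7). Antagonists and inhibitory Smads went both ways, since 4 of 14 tested members rose and 2 fell, with a median of 0.45. Bmper, a BMP-binding regulator, had 14.9 CPM at 0 μM and 127, 121 and 120.3 CPM at 100, 150 and 200 μM. Gremlin 1 (Grem1) fell, at 62.6 CPM at 0 μM and 11.6, 17.1 and 10 CPM at 100, 150 and 200 μM. Chordin-like 2 (Chrdl2) had 0 counts at 0 μM and 5, 12 and 16 at the doses, at least 2.56-fold higher. Of BMP target genes 1 rose and 1 fell of 9 tested, with a median of 0.40 that was not of 1 sign over the doses (-0.32, 0.89 and 0.28 at 100, 150 and 200 μM). Each share was 11.1%, beside 14.2% of all genes that rose and 5.47% that fell. Tmem100 rose, at 0.819 CPM at 0 μM and 16.8, 14 and 14.9 CPM at 100, 150 and 200 μM, and Msx2 fell as given above. In the TGF-β and activin list 1 of 17 tested members rose and 0 fell, namely Tgfb2 at 8.64 CPM at 0 μM and 23.5, 22.7 and 21.9 CPM at 100, 150 and 200 μM, with a median of -0.24 (-0.40, 0.00 and -0.18 at the doses). Its share of rises, 5.88%, was below that of all genes.

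The BMP lists depended on the control in part. For the ligands 3 rose and 0 fell against A-5, and 2 rose and 0 fell against B-4. For receptors and Smads 1 rose and 0 fell against A-5, and 1 rose and 0 fell against B-4. For antagonists 6 rose and 1 fell against A-5, and 4 rose and 0 fell against B-4. For the target genes 3 rose and 0 fell against A-5, and 4 rose and 1 fell against B-4, and for TGF-β and activin 3 rose and 0 fell against A-5, and 4 rose and 0 fell against B-4. Bmper, Tmem100, Tgfb2, Bmp8b and Acvrl1 rose against all 3 controls. Gdf6 had mean log2 differences of -0.29 against A-5 and -0.08 against B-4. Grem1 was near B-4, with a smallest log2 difference of 0.02.

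Some of the transcripts known as targets of β-catenin rose, and the others passed the rule in neither direction. Of 12 Wnt target genes, 6 rose and 0 fell of 11 tested, with a median log2 difference of 1.87, or 1.64 with members at 0 counts set to their bound. Axin2, an inhibitor that the pathway switches on, had 1.91 CPM at 0 μM and 67.3, 40.2 and 50.7 CPM at 100, 150 and 200 μM, 27.6-fold on average (adjusted p = 0.000383 by edgeR). Rnf43, a ligase that removes Wnt receptors, had 1.18 CPM at 0 μM and 21.3, 19.1 and 19.9 CPM at 100, 150 and 200 μM, and the factor Tcf7 had 2.12 CPM at 0 μM and 8.23, 9.49 and 20.2 CPM at 100, 150 and 200 μM. Nkd2, another feedback inhibitor, had 0 counts at 0 μM and 77, 116 and 126 counts at the doses, at least 26.8-fold higher. Of secreted antagonists 4 rose and 0 fell of 9 tested, with a median of 0.95, and every risen member had fewer than 10 counts at 0 μM. Wif1, which binds Wnt proteins, had 0.152 CPM at 0 μM and 45.8, 157 and 105 CPM at 100, 150 and 200 μM, 678-fold on average from 5 counts at 0 μM. Dkk2 had 0.152 CPM at 0 μM and 4.98, 8.47 and 8.68 CPM at 100, 150 and 200 μM, and Sostdc1 had 0 counts at 0 μM and 2, 11 and 15 counts, at least 2.01-fold higher, though edgeR did not call it (adjusted p = 0.0903). At 100 μM Sostdc1 stood at 0.0755 CPM, under the floor of 0.091 CPM at 0 μM. Of the ligands 3 rose and 0 fell of 9 tested, with a median of -0.17 (-0.39, 0.01 and -0.15 at the doses). Wnt4 had 0.243 CPM at 0 μM and 5.66, 12.5 and 10.2 CPM at 100, 150 and 200 μM, Wnt6 6.37 CPM at 0 μM and 15.6, 15.5 and 13.1 CPM at 100, 150 and 200 μM, and Wnt11 had 3 counts at 0 μM and 1.09, 1.56 and 1.38 CPM. Of the receptors 4 rose and 0 fell of 14 tested, with a median of 0.43. Lrp4, a receptor for sclerostin, had 45 CPM at 0 μM and 179, 348 and 268 CPM at 100, 150 and 200 μM, the co-receptor Lrp5 had 206 CPM at 0 μM and 842, 685 and 853 CPM at 100, 150 and 200 μM, and Fzd9 had 0.121 CPM at 0 μM and 3.74, 2.84 and 3.52 CPM at 100, 150 and 200 μM. Fzd7 rose from 28.9 CPM to 115, 84.8 and 68.8 CPM.

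Most of the risen Wnt targets and antagonists also rose against the other controls. For the targets 6 rose and 0 fell against A-5, and 5 rose and 0 fell against B-4. For the antagonists 5 rose and 0 fell against A-5, and 5 rose and 1 fell against B-4. Wif1, Dkk2, Sost, Axin2, Rnf43, Nkd2, Tcf7, Lrp4, Wnt4, Wnt6 and Wnt11 rose against 0 μM, A-5 and B-4. Lrp5 did not differ from B-4 by the rule, with a mean log2 difference of -0.04. For the ligands 3 rose and 1 fell against A-5, and 3 rose and 0 fell against B-4, and for the receptors 5 rose and 0 fell against A-5, and 1 rose and 1 fell against B-4.

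Single genes of growth factor pathways changed, and the shares of rises in the Notch (18.2%) and osteoclast support (14.3%) lists were near that of all genes. In the FGF list 4 of 14 tested members rose and 3 fell. The receptors Fgfr2 and Fgfr3, both active in bone, had 76.1 CPM at 0 μM and 1125, 989.9 and 984 CPM at 100, 150 and 200 μM, and 7.13 CPM at 0 μM and 68.6, 129 and 128 CPM at 100, 150 and 200 μM, respectively. The ligand Fgf2 had 5.4 CPM at 0 μM and 32.5, 38 and 39.9 CPM at 100, 150 and 200 μM. Dusp6, a phosphatase induced by ERK signalling, fell, at 73.7 CPM at 0 μM and 12.1, 22.3 and 22.2 CPM at 100, 150 and 200 μM. In the IGF list 3 of 11 tested members rose and 0 fell. Besides Igf2, the binding protein Igfbp5, abundant in bone, had 17.8 CPM at 0 μM and 551, 524 and 695 CPM at 100, 150 and 200 μM, 33.1-fold on average. Igfbp2 had 0 counts at 0 μM and 15, 33 and 26 counts, at least 6-fold higher. In the Notch list 2 of 11 tested members rose and 1 fell. Notch1 had 86.1 CPM at 0 μM and 265, 213 and 276 CPM at 100, 150 and 200 μM, and Rbpj, the DNA-binding protein of the pathway, fell, at 292 CPM at 0 μM and 76.3, 82.8 and 83 CPM at 100, 150 and 200 μM. The ligand Dll4 had 3 counts at 0 μM and 10, 52 and 31, a ratio of 6.89 (95% interval 2.36 to 33.4), and was not called by edgeR (adjusted p = 0.056). Of genes for osteoclast support and parathyroid hormone 1 rose and 1 fell of 7 tested, namely Pth1r up and Il6 down, the last at 4.09 CPM at 0 μM and 0.151, 0.27 and 0.33 CPM at 100, 150 and 200 μM. The medians of these lists were 0.28 for FGF, 0.59 for IGF, 0.60 for Notch and 0.61 for osteoclast support. The FGF median changed sign in 5 alternatives, to as low as -0.46 without 200 μM. With the untreated libraries as control, 3 rose and 3 fell against A-5, and 5 rose and 1 fell against B-4 in the FGF list. Likewise 6 rose and 0 fell against A-5, and 4 rose and 1 fell against B-4 in the IGF list, 1 rose and 1 fell against A-5, and 3 rose and 0 fell against B-4 in the Notch list, and 1 rose and 1 fell against A-5, and 1 rose and 0 fell against B-4 in the last list. Igf2, Igfbp5, Igfbp2, Fgfr2, Fgfr3, Fgf2 and Pth1r rose against all 3 controls.

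Several other lists of matrix genes held rises. The risen genes Omd and Sparc are counted both here and in the bone matrix list. Of small leucine-rich proteoglycans, which bind collagen fibrils, 6 rose and 0 fell of 9 tested, with a median log2 difference of 2.87. Asporin (Aspn) had 14.9 CPM at 0 μM and 625, 360.1 and 434 CPM at 100, 150 and 200 μM, fibromodulin (Fmod) 181 CPM at 0 μM and 1176, 1424 and 1376 CPM at 100, 150 and 200 μM and decorin (Dcn) 15.4 CPM at 0 μM and 90.4, 145 and 141 CPM at 100, 150 and 200 μM. Lumican (Lum) had 5.94 CPM at 0 μM and 30.1, 88.6 and 77.6 CPM at 100, 150 and 200 μM and was lower at 100 μM than at the other doses. Of matricellular proteins, which modulate how cells hold to matrix, 9 rose and 3 fell of 19 tested. Tenascin W (Tnn), found around osteoblasts, had 5.1 CPM at 0 μM and 689, 753 and 424 CPM at 100, 150 and 200 μM, 122-fold on average (adjusted p = 0.000236 by edgeR). Tenascin C (Tnc) had 30 CPM at 0 μM and 969.8, 1362 and 1162 CPM at 100, 150 and 200 μM, 38.8-fold on average, and Sparcl1 had 36.8 CPM at 0 μM and 223, 158 and 211 CPM at 100, 150 and 200 μM. Of collagens 5 rose and 0 fell of 25 tested, a share of rises of 20% beside 14.2% of all genes. Col15a1, of basement membrane zones, had 0.182 CPM at 0 μM and 23.4, 23.8 and 29.5 CPM at 100, 150 and 200 μM, Col3a1 1014 CPM at 0 μM and 3845, 3683 and 4228 CPM at 100, 150 and 200 μM, Col6a3 611 CPM at 0 μM and 2740.4, 1786 and 2200.0 CPM at 100, 150 and 200 μM and Col27a1 86 CPM at 0 μM and 317, 339 and 340.1 CPM at 100, 150 and 200 μM. Enzymes that process collagen stayed mostly within the limits, since 1 of 20 tested members rose and 2 fell. Pcolce2 rose, at 3.21 CPM at 0 μM and 21.2, 24.3 and 25.7 CPM at 100, 150 and 200 μM. The prolyl hydroxylase P4ha1 fell, at 318 CPM at 0 μM and 119, 103 and 111 CPM at 100, 150 and 200 μM, as did P3h2, at 75.7 CPM at 0 μM and 32.8, 31.9 and 30.2 CPM at 100, 150 and 200 μM.

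Receptors for matrix and enzymes that cut it also changed. Of integrins and laminins 8 rose and 2 fell of 28 tested, with a median of -0.08. Integrin α8 (Itga8) had 7.82 CPM at 0 μM and 87.5, 109 and 99.3 CPM at 100, 150 and 200 μM, Itga9 3.88 CPM at 0 μM and 26.4, 35.8 and 31.6 CPM at 100, 150 and 200 μM, the collagen receptor subunit Itga10 165 CPM at 0 μM and 929, 901 and 884 CPM at 100, 150 and 200 μM and laminin α2 (Lama2) 0.303 CPM at 0 μM and 3.02, 5.61 and 4.99 CPM at 100, 150 and 200 μM. Of proteases and their inhibitors 7 rose and 2 fell of 17 tested, with a median of 1.03. Collagenase Mmp13, made by mature osteoblasts, had 28.1 CPM at 0 μM and 931, 1133 and 1476 CPM at 100, 150 and 200 μM, 42-fold on average (adjusted p = 0.000226 by edgeR). Adamts1 had 88.1 CPM at 0 μM and 1438, 1478 and 1441 CPM at 100, 150 and 200 μM, and Adamts9 0.364 CPM at 0 μM and 1.21, 3.74 and 4.85 CPM at 100, 150 and 200 μM. The inhibitor Timp4 had 3 counts at 0 μM and 3.85, 6.06 and 4.75 CPM at the doses. Per transcript length, Postn at 100 μM stood at 8715 FPKM beside 1230.4 FPKM for Col1a1, while at 0 μM the values were 279 and 1590.1 FPKM. Medians of the remaining lists were 0.53 for collagens, -0.15 for processing enzymes and 0.52 for matricellular proteins. Set against A-5 and B-4 instead, 10 rose and 0 fell against A-5, and 8 rose and 0 fell against B-4 among collagens. Further, 6 rose and 0 fell against A-5, and 4 rose and 0 fell against B-4 among small proteoglycans, 10 rose and 0 fell against A-5, and 8 rose and 0 fell against B-4 among matricellular proteins, and 2 rose and 2 fell against A-5, and 1 rose and 0 fell against B-4 among processing enzymes. For integrins and laminins 9 rose and 2 fell against A-5, and 8 rose and 1 fell against B-4, and for proteases 6 rose and 1 fell against A-5, and 7 rose and 0 fell against B-4. Postn, Tnc, Tnn, Aspn, Fmod, Dcn, Lum, Col15a1, Col3a1, Col6a3, Itga8, Itga9, Lama2, Adamts1, Timp4 and Pcolce2 rose against every control. Mmp13 did not pass the rule against B-4, and Itga10 and Col27a1 were close to B-4, with mean log2 differences of 0.11 and 0.00.

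Many chemokine and NF-κB genes fell against 0 μM, while most interferon and complement genes did not. Of chemokines 0 rose and 6 fell of 9 tested, with median log2 differences of -2.04, -2.14 and -2.08 at 100, 150 and 200 μM. Besides Ccl2 and Ccl7, Ccl5 fell from 9.34 CPM to 0.679, 0.917 and 0.991 CPM, and Cxcl5 had 20 counts at 0 μM and 0 at every dose. Of genes downstream of NF-κB and of the acute phase 0 rose and 7 fell of 16 tested, with a median of -1.07. Il6 fell as above. Cyclooxygenase 2 (Ptgs2) had 57.6 CPM at 0 μM and 17.7, 18.3 and 12 CPM at 100, 150 and 200 μM, and the NF-κB subunit Nfkb2 had 229 CPM at 0 μM and 92.9, 92.3 and 90.9 CPM at 100, 150 and 200 μM. Of interferon response and antigen presentation genes 0 rose and 5 fell of 24 tested, and the median was -0.01 (-0.01, -0.15 and 0.15 at the doses). The factor Irf1 had 70.8 CPM at 0 μM and 17.8, 17.5 and 19.3 CPM at 100, 150 and 200 μM, Ifit1 36.3 CPM at 0 μM and 11.7, 12 and 13.3 CPM at 100, 150 and 200 μM, Ifit2 43.5 CPM at 0 μM and 18.6, 14.1 and 17.5 CPM at 100, 150 and 200 μM and the immunoproteasome subunit Psmb8 26 CPM at 0 μM and 10.9, 10.9 and 11.5 CPM at 100, 150 and 200 μM. Of complement and coagulation genes 2 rose and 1 fell of 15 tested, shares near those of all genes, and the median was 0.31. Complement factor B (Cfb) had 1.61 CPM at 0 μM and 11.1, 7.28 and 6.06 CPM at 100, 150 and 200 μM, and urokinase (Plau) 25.4 CPM at 0 μM and 10.1, 11.5 and 10.9 CPM at 100, 150 and 200 μM. Chemokines and the NF-κB list had as many falls against A-5 as against 0 μM, and fewer against B-4. For chemokines 1 rose and 6 fell against A-5, and 2 rose and 1 fell against B-4. For the NF-κB list 0 rose and 7 fell against A-5, and 0 rose and 2 fell against B-4. For the interferon list 1 rose and 3 fell against A-5, and 11 rose and 0 fell against B-4, and for complement 3 rose and 1 fell against A-5, and 3 rose and 0 fell against B-4. As CPM of the library total, Ccl2 stood at 52.8 at 0 μM, 15.1 in A-5 and 1.88 in B-4, and Ccl5 at 9.84 at 0 μM, 3.2 in A-5 and 0.201 in B-4.

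Most listed cell cycle and replication genes fell against 0 μM, and this result turned with the control. Of 29 cell cycle genes, 0 rose and 19 fell of 26 tested, with median log2 differences of -1.85, -1.95 and -1.74 at 100, 150 and 200 μM. The mitotic regulator Cdc20 had 99.4 CPM at 0 μM and 16.3, 16.5 and 22.1 CPM at 100, 150 and 200 μM, Aurora kinase B (Aurkb) 80 CPM at 0 μM and 13.6, 15.9 and 17.8 CPM at 100, 150 and 200 μM, the kinesin Kif20a 184 CPM at 0 μM and 39.4, 31.5 and 41.7 CPM at 100, 150 and 200 μM and survivin (Birc5) 89.3 CPM at 0 μM and 22, 20.8 and 21.2 CPM at 100, 150 and 200 μM. Of DNA replication genes 0 rose and 20 fell of 23 tested, with medians of -1.94, -1.56 and -1.89. The helicase subunit Mcm5 had 172 CPM at 0 μM and 25.4, 32.4 and 24 CPM at 100, 150 and 200 μM, Mcm10 52.1 CPM at 0 μM and 8.3, 10.6 and 10.2 CPM at 100, 150 and 200 μM, Uhrf1, which keeps DNA methylation, 228 CPM at 0 μM and 34.7, 49.2 and 46 CPM at 100, 150 and 200 μM, and thymidine kinase (Tk1) 81.9 CPM at 0 μM and 16.7, 18.1 and 17.7 CPM at 100, 150 and 200 μM. The doses lay close together for each of these 8 genes. By edgeR, 20 cell cycle and 22 replication genes were called lower and none higher. Against A-5 the direction was the same, with 11 of 26 cell cycle and 9 of 23 replication genes falling. Against B-4 it was reversed, with 19 and 13 rising and 0 falling in either list. As CPM of the library total, Cdc20 stood at 105 at 0 μM, 70.2 in A-5 and 5.84 in B-4, and Mcm5 at 181 at 0 μM, 115 in A-5 and 7.59 in B-4. For these 2 genes the treated libraries lay between B-4 and the 2 others.

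Promoters of these lists are shown because their members moved together. In the 27025 promoters of RefSeq (GRCm38.p6, first start listed per gene), the 250 bases before the start were searched on both strands for the E2F words TTTCCCGC, TTTCGCGC, TTTGGCGC and TTTGCCGC, and for the CHR word TTTGAA, known from cell cycle promoters. An E2F word was in 1.91% of all promoters, in 3.2% of those of 10958 matched tested genes, and in 6 of 17 matched replication genes that fell. The CHR word was in 16.3%, 10.9% and 7 of 15 matched cell cycle genes that fell. A match describes the letters only. The stretches of 120 bases, 5′ to 3′ on the strand of the gene, have the matched words in capitals, and E2F words on both strands can overlap.
Mcm5, chr8:75109300-75109419, plus strand: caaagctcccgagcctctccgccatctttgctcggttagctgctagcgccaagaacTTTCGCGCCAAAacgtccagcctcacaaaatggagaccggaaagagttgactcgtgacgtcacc
Mcm6, chr1:128359706-128359825, minus strand: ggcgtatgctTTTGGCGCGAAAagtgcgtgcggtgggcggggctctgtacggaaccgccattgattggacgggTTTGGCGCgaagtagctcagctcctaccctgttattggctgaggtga
Cdc20, chr4:118437344-118437463, minus strand: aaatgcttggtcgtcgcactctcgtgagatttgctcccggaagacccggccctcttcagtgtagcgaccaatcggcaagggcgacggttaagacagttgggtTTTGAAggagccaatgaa
Ube2c, chr2:164769809-164769928, plus strand: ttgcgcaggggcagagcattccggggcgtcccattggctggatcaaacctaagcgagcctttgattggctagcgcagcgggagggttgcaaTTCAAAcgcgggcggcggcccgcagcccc
Mcm6 and Ube2c, shown for comparison, were picked after their values were seen.

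Most listed glycolysis and hypoxia-response genes fell against 0 μM, but not all. Of 28 listed, 1 rose and 17 fell of 26 tested, with median log2 differences of -1.43, -1.47 and -1.48. Pgk1, a glycolytic kinase, had 1165 CPM at 0 μM and 205, 233 and 211 CPM at 100, 150 and 200 μM, a log2 fold change of -2.43 by edgeR (adjusted p = 0.000161). Gapdh had 73.2 CPM at 0 μM and 16.4, 12.8 and 12.8 CPM at 100, 150 and 200 μM. Both have near-identical processed copies in the genome, so their counts are uncertain, and Gapdh is often used to scale other measurements. Ankrd37, a small hypoxia-induced protein, had 1.91 CPM at 0 μM and 0.226, 0.198 and 0.0918 CPM at 100, 150 and 200 μM, and Car9 fell as given above. Hif3a alone rose. With A-5 or B-4 in place of 0 μM, 1 rose and 8 fell against A-5, and 1 rose and 4 fell against B-4, and Car9 and Ankrd37 fell against all 3 controls. Pgk1 had mean log2 differences of -1.40 against A-5 and -0.59 against B-4. The core letters of the hypoxia response element, ACGTG, were in 16.6% of all promoters, in 20.9% of those of tested genes and in 8 of the 17 genes of the list that fell. For Car9 and Pgk1 they stand as follows, in capitals on either strand. The RefSeq start of Car9 lies inside the gene by its GENCODE position given above, and so does the matched word.
Car9, chr4:43506906-43507025, plus strand: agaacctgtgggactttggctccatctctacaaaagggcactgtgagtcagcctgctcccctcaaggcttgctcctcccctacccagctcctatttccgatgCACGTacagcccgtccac
Pgk1, chrX:106186909-106187028, plus strand: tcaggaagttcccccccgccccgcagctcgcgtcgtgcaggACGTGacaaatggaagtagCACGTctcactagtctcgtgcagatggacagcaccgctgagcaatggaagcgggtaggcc
The words of 5 more factors were searched in the same way, in lists too small to compare shares. Shares are given of all promoters and then of those of tested genes. TGTGGT for Runx was in 2 of 8 matched risen bone matrix genes (14.2% and 11.1%). CTTTGA for Tcf and Lef was in 0 of 6 matched risen Wnt target genes (14.1% and 11.1%), and AGAACA for the glucocorticoid receptor in 1 of 9 matched risen glucocorticoid-responsive genes (16.2% and 11.1%). The word of 10 letters for the sterol regulatory element was in 0 of 6 matched fallen cholesterol genes (0.0629% and 0.0182%). Any of 4 NF-κB words of 10 letters was in 1 of 5 matched fallen genes of the NF-κB list (0.348% and 0.429%).

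Many genes of cholesterol synthesis and uptake, which cells lower when sterol is plentiful, fell against 0 μM and A-5. In this list 2 of 22 tested members rose and 12 fell, with medians of -1.11, -1.81 and -1.19 at 100, 150 and 200 μM. Idi1, an early enzyme of the path, had 99.6 CPM at 0 μM and 24.6, 13.3 and 21.3 CPM at 100, 150 and 200 μM, and the sterol sensor Insig1 155 CPM at 0 μM and 48.2, 27.3 and 47.8 CPM at 100, 150 and 200 μM. Both were lowest at 150 μM. Abca1, which exports cholesterol, rose, at 1.06 CPM at 0 μM and 34, 26.1 and 21.8 CPM at 100, 150 and 200 μM, 25.7-fold on average. Against A-5 1 rose and 15 fell, and against B-4 no member passed the rule in either direction. As CPM of the library total, Idi1 stood at 105 at 0 μM, 153 in A-5 and 19.6 in B-4.

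Many genes known to respond to glucocorticoids rose, with 10 higher and 1 lower of 19 tested and a median of 1.63. The median turned to -0.30 against B-4, and 3 of the risen members had fewer than 10 counts at 0 μM. The transcription factor Zbtb16 had 0.425 CPM at 0 μM and 7.47, 10.6 and 11.1 CPM at 100, 150 and 200 μM, and Sult1a1, a sulfotransferase, had 0.394 CPM at 0 μM and 25.1, 35.8 and 28.7 CPM at 100, 150 and 200 μM. Klf15 had 2 counts at 0 μM and 1.62, 2.27 and 3.01 CPM at the doses, a ratio of 37.9 (95% interval 10.5 to 313). Against the untreated libraries, 9 rose and 0 fell against A-5, and 3 rose and 1 fell against B-4. Zbtb16, Klf15 and Hif3a rose against all 3 controls, and Sult1a1 was lower than B-4, with a smallest log2 difference of -0.67. Of nuclear receptors 4 rose and 1 fell of 25 tested, shares near those of all genes, with a median of 0.20. Ppara had 0 counts at 0 μM and 13, 20 and 21 counts, at least 4.53-fold higher. Nr4a3 had 0.576 CPM at 0 μM and 1.74, 1.78 and 2.18 CPM at 100, 150 and 200 μM, the bile acid receptor Nr1h4 2.52 CPM at 0 μM and 5.62, 13.2 and 10.9 CPM at 100, 150 and 200 μM, and Nr2f2 fell, at 176 CPM at 0 μM and 48.6, 39.4 and 39 CPM at 100, 150 and 200 μM. For this list 5 rose and 1 fell against A-5, and 6 rose and 0 fell against B-4.

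In the remaining response lists few members changed. Of core clock genes 1 rose and 3 fell of 14 tested. Dbp had 5.37 CPM at 0 μM and 1.36, 2.23 and 2 CPM at 100, 150 and 200 μM, Bhlhe40 80.5 CPM at 0 μM and 34.9, 25.9 and 30.8 CPM at 100, 150 and 200 μM, Per3 30 CPM at 0 μM and 8.75, 14.5 and 12.6 CPM at 100, 150 and 200 μM, and Bhlhe41, which rose, 21.5 CPM at 0 μM and 98.1, 48.5 and 75.5 CPM at 100, 150 and 200 μM. Of Nrf2-driven antioxidant genes 1 rose and 2 fell of 15 tested. The quinone reductase Nqo1 had 113 CPM at 0 μM and 29.4, 24.9 and 35.7 CPM at 100, 150 and 200 μM and thioredoxin reductase Txnrd1 218 CPM at 0 μM and 80.8, 89.3 and 81.6 CPM at 100, 150 and 200 μM. Gsta1 had 0 counts at 0 μM and 9, 6 and 4 counts and was not called by edgeR (adjusted p = 0.161). Set against 3 counts at 0 μM it was at least 1.91-fold higher, which is under 2-fold. Of genes of Atf4 and ER stress 1 rose and 1 fell of 18 tested, namely Atf3 at 1.12 CPM at 0 μM and 3.09, 4.94 and 5.14 CPM at 100, 150 and 200 μM and Shmt2 at 235 CPM at 0 μM and 107, 109 and 99.2 CPM at 100, 150 and 200 μM. Of lysosome genes 2 rose and 0 fell of 20 tested. Cathepsin K (Ctsk), a collagen-cutting protease, had 68.6 CPM at 0 μM and 301, 231 and 264 CPM at 100, 150 and 200 μM, and cathepsin B (Ctsb) 564 CPM at 0 μM and 1748, 1216 and 1513 CPM at 100, 150 and 200 μM. The medians were -0.19, -0.41, -0.14 and 0.42 for the clock, Nrf2, Atf4 and lysosome lists. With the untreated libraries as control, 0 rose and 2 fell against A-5, and 0 rose and 0 fell against B-4 for the clock. For the Nrf2 list 0 rose and 3 fell against A-5, and 1 rose and 1 fell against B-4, for the Atf4 list 1 rose and 0 fell against A-5, and 0 rose and 2 fell against B-4, and for lysosomes 1 rose and 0 fell against A-5, and 1 rose and 0 fell against B-4.

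**Figure D3:**
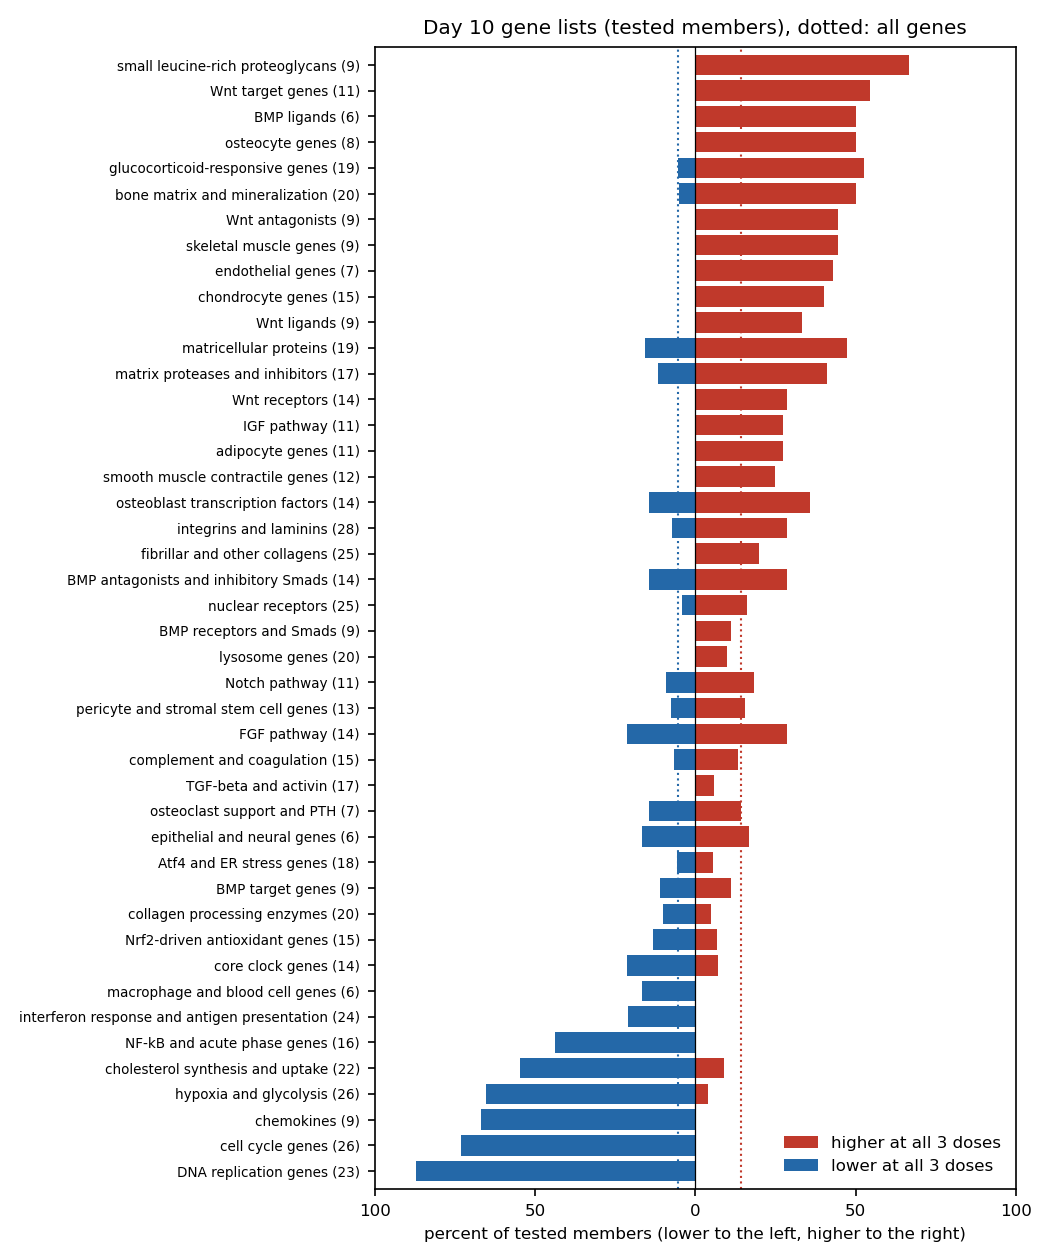
Bars give the percent of tested members of each of 44 gene lists that rose (red, to the right) or fell (blue, to the left) at all 3 doses against 0 μM, with the number tested in brackets. The dotted lines mark the share of all genes, 14.2% higher and 5.47% lower. Small proteoglycans and Wnt targets lead at the top, and cell cycle and replication genes at the bottom.

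Markers of cell types were read against the label. The 9 markers of the osteoblast lineage summed to 34046 CPM at 0 μM and 47743, 53926 and 47323 CPM at the doses, led by Col1a2 at 450456 counts at 0 μM. Within this sum Fn1 had 7536 CPM at 0 μM and 19875, 17225 and 15567 CPM, and Sparc 1493 and then 3702, 5228 and 4546 CPM. Col1a2 had 13662 CPM at 0 μM and 13620, 18743 and 15565 CPM, and Prrx1 698 and then 458, 399 and 380 CPM. The 6 markers of mature osteoblasts summed to 1665 CPM at 0 μM and 1964, 2455 and 2253 CPM at the doses, of which Spp1 made most at 0 μM. Of 14 markers of blood cells of bone marrow, the 6 with enough counts to test summed to 39.5 CPM at 0 μM and 56.8, 44.5 and 40.1 CPM at the doses, of which Lyz2 made most. Tyrobp, Itgam and Hbb-bs had 0 counts in all 4 libraries, and Ptprc had 0, 2, 12 and 3 counts. Of this list 0 rose and 1 fell of 6 tested, namely Ppbp, at 18 counts at 0 μM and 5, 11 and 12 at the doses, which edgeR did not call (adjusted p = 0.133). The tested stromal stem cell markers, 13 of 14, summed to 1860.4 CPM at 0 μM and 2562, 1882 and 2193 CPM at the doses, and 2 of 13 tested members rose and 1 fell. These shares, 15.4% and 7.69%, were near the 14.2% and 5.47% of all genes. Kit ligand (Kitl) had 34.8 CPM at 0 μM and 189, 144 and 174 CPM at 100, 150 and 200 μM, Nt5e 6.64 CPM at 0 μM and 24.8, 22.2 and 32.3 CPM at 100, 150 and 200 μM and Ly6a 15 CPM at 0 μM and 5.51, 5.2 and 5.32 CPM at 100, 150 and 200 μM.

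Some genes of other cell types rose, mostly from low levels, and most tested members passed the rule in neither direction. Sums are over the tested markers. Chondrocyte markers summed to 122 CPM at 0 μM and 189, 239 and 226 CPM at the doses, and 6 of 15 tested members rose and 0 fell. Col2a1, a defining marker, had 63.8 CPM at 0 μM and 21.6, 88.6 and 59.8 CPM and did not pass the rule, and Acan had 0, 2, 3 and 0 counts. Col9a3 was lower at every dose, at 2.21 CPM at 0 μM and 0.981, 1.47 and 1.45 CPM. Among those that rose, matrilin 4 (Matn4) had 4.19 CPM at 0 μM and 41.8, 40.7 and 38.6 CPM at 100, 150 and 200 μM and Comp 1.43 CPM at 0 μM and 5.09, 6.56 and 5.45 CPM at 100, 150 and 200 μM. Hapln1 had 0 counts at 0 μM and 11, 29 and 65 counts, at least 7.8-fold higher, and Col9a2 had 3 and then 19, 53 and 68 counts, a ratio of 10.7 (95% interval 3.66 to 51.8). Skeletal muscle markers summed to 6.92 CPM at 0 μM and 16.4, 26.6 and 19.1 CPM at the doses, and 4 of 9 tested members rose and 0 fell. Too scarce to test were Myod1, at 0, 0, 0 and 2 counts at 0, 100, 150 and 200 μM, Myog (0, 0, 5 and 0) and Myf5 (0, 0, 2 and 0). Mylpf was lower at every dose, at 0.728 CPM at 0 μM and 0.49, 0.306 and 0.441 CPM, and did not pass the rule. Tnnt1 had 0.121 CPM at 0 μM and 4.41, 3.06 and 4.11 CPM at 100, 150 and 200 μM, Des 1.55 CPM at 0 μM and 3.21, 7.32 and 5.49 CPM at 100, 150 and 200 μM, Tnni1 0 counts at 0 μM and 12, 33 and 28 at the doses, and Ckm a ratio of 10.5 (95% interval 3.6 to 50.9). Of smooth muscle contractile genes 3 rose and 0 fell of 12 tested, with Actg2 at 6.73 CPM at 0 μM and 38.7, 61.6 and 45.6 CPM at 100, 150 and 200 μM and Myh11 at 0.243 CPM at 0 μM and 0.906, 0.899 and 0.918 CPM at 100, 150 and 200 μM. Adipocyte markers summed to 1033 CPM at 0 μM and 625, 464 and 600.1 CPM at the doses, and 3 of 11 tested members rose and 0 fell. Car3 had 0 counts at 0 μM and 22, 136 and 81 counts, Cd36 0 and then 9, 26 and 19, and Lep 2 and then 32, 28 and 33. Markers that make up the sum did not pass the rule and were lower at every dose. Fasn had 602 CPM at 0 μM and 321, 253 and 309 CPM, Scd1 292 CPM at 0 μM and 222, 142 and 209 CPM and Cebpb 133 CPM at 0 μM and 73.5, 58.7 and 75.4 CPM. Cidec and Cfd had 0 counts in all 4 libraries. Endothelial markers summed to 2.15 CPM at 0 μM and 7.05, 8.31 and 7.53 CPM at the doses, and 3 of 7 tested members rose and 0 fell. Tie1 did not pass the rule, at 11, 9, 12 and 9 counts at 0, 100, 150 and 200 μM. Cldn5 (0, 0, 1 and 0 counts) and Emcn (2, 4, 6 and 6) were too scarce to test. Cdh5 had 2 counts at 0 μM and 28, 36 and 46 counts, Vwf 0.819 CPM at 0 μM and 3.96, 5.59 and 5.05 CPM at 100, 150 and 200 μM, and Kdr 0 counts at 0 μM and 4, 14 and 10, which edgeR did not call (adjusted p = 0.0635). Of epithelial and neural genes 1 rose and 1 fell of 6 tested. Gfap had 0 counts at 0 μM and 6, 15 and 15 counts, and Tubb3 fell, at 16.1 CPM at 0 μM and 1.96, 3.2 and 3.01 CPM at 100, 150 and 200 μM. The part of such cells in the results was not tested.

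The medians of these lists were 1.17 for chondrocyte, 1.08 for skeletal muscle, 0.46 for smooth muscle, 0.41 for adipocyte (0.48, 0.91 and -0.25 at the doses) and 0.63 for endothelial genes. They were -0.16 for stromal, -0.17 for blood cell and 0.33 for epithelial and neural genes (-0.24, 0.71 and 0.59 at the doses). Set against A-5 and B-4 instead, 8 rose and 0 fell against A-5, and 4 rose and 0 fell against B-4 among chondrocyte genes. In the skeletal muscle list 2 rose and 0 fell against A-5, and 3 rose and 1 fell against B-4. In the smooth muscle list 7 rose and 0 fell against A-5, and 5 rose and 0 fell against B-4. In the adipocyte list 5 rose and 1 fell against A-5, and 3 rose and 0 fell against B-4, and in the endothelial list 1 rose and 0 fell against A-5, and 4 rose and 0 fell against B-4. Stromal genes gave 3 higher and 1 lower against A-5 and 1 and 0 against B-4. Blood cell genes gave 2 and 0, and 1 and 0. Epithelial and neural genes gave 1 and 2, and 0 and 0. Lep, Tnnt1, Matn4, Col9a2, Cdh5 and Actg2 rose against all 3 controls.

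The deposited table assigns genes to KEGG pathways, and 292 pathways had at least 20 tested genes. Of the 6858 tested genes with a pathway, 799 rose (11.7%) and 426 fell (6.21%). The highest share of rises was in retinol metabolism, at 17 of 47 genes. Its leading members were the aldehyde oxidase Aox4, at 6.19, 9.94 and 12 CPM from 0 counts at 0 μM, Aldh1a7, at 0.637 CPM at 0 μM and 55.5, 57.8 and 56.9 CPM at 100, 150 and 200 μM, and Cyp2b10, at 4.49, 3.52 and 4.63 CPM from 0 counts. Of the 17 risen genes 9 had fewer than 10 counts at 0 μM, and these enzyme families hold close paralogs that can share reads. ECM-receptor interaction followed, at 35 of 99, with Ibsp, Tnn and nephronectin (Npnt), an integrin ligand, at 7.22 CPM at 0 μM and 666, 819.8 and 790.5 CPM at 100, 150 and 200 μM. Pathways named for heart muscle disease share integrins, ion exchangers and sarcomere genes. They were arrhythmogenic right ventricular cardiomyopathy (20 of 60), dilated cardiomyopathy (24 of 75) and hypertrophic cardiomyopathy (22 of 72). Their leading genes were Itgbl1, at 0.334 CPM at 0 μM and 13.5, 19.9 and 18.6 CPM at 100, 150 and 200 μM, the muscle actinin Actn3, at 5.25 CPM at 0 μM and 224, 173 and 235 CPM at 100, 150 and 200 μM, the sodium and calcium exchanger Slc8a2, at 0.425 CPM at 0 μM and 11.7, 13.6 and 18.8 CPM at 100, 150 and 200 μM, and angiotensinogen (Agt), at 4.58 CPM at 0 μM and 1062, 619.7 and 748 CPM at 100, 150 and 200 μM. Pancreatic secretion had 21 of 63, led by Pla2g3, at 5.36, 3.6 and 4.53 CPM from 0 counts, Clca3a1, at 0.334 CPM at 0 μM and 7.02, 19.4 and 12.9 CPM at 100, 150 and 200 μM, and Amy1, at 0.303 CPM at 0 μM and 5.28, 11.5 and 8.59 CPM at 100, 150 and 200 μM. Complement and coagulation cascades, a longer list than the 15 genes above, had 16 of 53, led by the coagulation factors F7, at 3.74, 5.23 and 4.39 CPM from 0 counts, and F10, at least 8.74-fold higher. Gm4788 was at least 11.5-fold higher, and F7, F10 and Gm4788 all had 0 counts at 0 μM. The tally of risen genes with few counts at 0 μM is given for retinol metabolism only. Such genes passed the count filter mainly through the treated libraries, where they are high. The shares of rises by pathway thus describe these libraries and are no support for a change of a pathway. Protein digestion and absorption had 22 of 73, led by the amino acid transporter Slc36a2, at 0.121 CPM at 0 μM and 23.2, 68.2 and 59.5 CPM at 100, 150 and 200 μM, Col15a1, and the protease Mep1a, at least 22.6-fold higher. Agt, Npnt, Slc36a2, Aox4, Slc8a2, Pla2g3, F7, F10, Gm4788 and Mep1a rose against all 3 controls. Aldh1a7, Cyp2b10, Itgbl1, Actn3, Clca3a1 and Amy1 did not.

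The highest share of falls was in DNA replication, at 23 of 40 genes, with Mcm5, DNA ligase 1 (Lig1), at 128 CPM at 0 μM and 25.3, 30.4 and 23.5 CPM at 100, 150 and 200 μM, and the polymerase Pole, at 87.8 CPM at 0 μM and 19.1, 24.8 and 22.7 CPM at 100, 150 and 200 μM. Viral protein interaction with cytokines had 12 of 37, led by Ccl2, Ccl7 and Cxcl5. DNA repair pathways came next. Mismatch repair had 8 of 25, led by Lig1, the nuclease Exo1, at 26.3 CPM at 0 μM and 5.24, 7.05 and 5.54 CPM at 100, 150 and 200 μM, and Pold1, at 74.2 CPM at 0 μM and 22, 25.1 and 24.6 CPM at 100, 150 and 200 μM. Homologous recombination had 14 of 46, led by Bard1, at 22.4 CPM at 0 μM and 4.87, 5.72 and 5.71 CPM at 100, 150 and 200 μM, Eme1, at 11.4 CPM at 0 μM and 2.98, 2.45 and 2.28 CPM at 100, 150 and 200 μM, and Rad54l, at 20.6 CPM at 0 μM and 4.64, 5.83 and 4.17 CPM at 100, 150 and 200 μM. The Fanconi anemia pathway had 15 of 54, with Fanca, at 63.3 CPM at 0 μM and 15, 15.9 and 14.5 CPM at 100, 150 and 200 μM, and Fancd2, at 35.7 CPM at 0 μM and 9.66, 7.96 and 9.62 CPM at 100, 150 and 200 μM. Cell cycle had 29 of 124, led by separase (Espl1), at 131 CPM at 0 μM and 22.8, 23 and 24.6 CPM at 100, 150 and 200 μM, and by E2f2, at 7.13 CPM at 0 μM and 1.09, 1.47 and 1.18 CPM at 100, 150 and 200 μM. Terpenoid backbone synthesis, which feeds cholesterol, had 7 of 30, with Idi1, Fdps, at 227 CPM at 0 μM and 71.3, 37.4 and 66.9 CPM at 100, 150 and 200 μM, and Acat2, at 121 CPM at 0 μM and 42.9, 39.5 and 49.3 CPM at 100, 150 and 200 μM. Glycolysis had 15 of 65, with Pgk1, Gapdh and Aldh3a1, at 13.8 CPM at 0 μM and 0.868, 2.37 and 0.881 CPM at 100, 150 and 200 μM. All of the repair and replication genes named here were higher than B-4, at every dose.

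In these libraries most risen or fallen genes did not move further from 0 μM with each higher dose. The distance from 0 μM was largest at 100 μM for 886 of the rises, at 150 μM for 762 and at 200 μM for 786. Among the falls it was largest at 100 μM for 441, at 150 μM for 302 and at 200 μM for 193. It grew from 100 to 150 to 200 μM in 437 of 2434 rises and 97 of 936 falls. Each dose has 1 library, so no dose difference can be tested. Among risen or fallen genes averaging 20 CPM or more, the largest log2 differences of 200 minus 100 μM were in Ibsp (1.54), Lum (1.37), Slc36a2 (1.36) and Ramp1 (1.20). For each of these the level at 150 μM was close to that at 200 μM or above it. The smallest were in the splicing regulator Raver1 (-1.30), Wfdc3 (-1.25), the ectonucleotidase Entpd3 (-1.20) and the natriuretic peptide receptor Npr3 (-0.98). Raver1 had 124 CPM at 0 μM and 55, 58 and 22.3 CPM at 100, 150 and 200 μM, Entpd3 3.67 CPM at 0 μM and 53.9, 23.4 and 23.4 CPM at 100, 150 and 200 μM and Npr3 188 CPM at 0 μM and 41.4, 36.3 and 21 CPM at 100, 150 and 200 μM. Raver1 lay above B-4 at every dose, with a smallest log2 difference of 0.92. Npr3 did not fall against the untreated libraries, with mean log2 differences of 0.29 against A-5 and 0.53 against B-4. Entpd3 and Wfdc3 rose against A-5 and did not pass the rule against B-4.

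**Figure D4:**
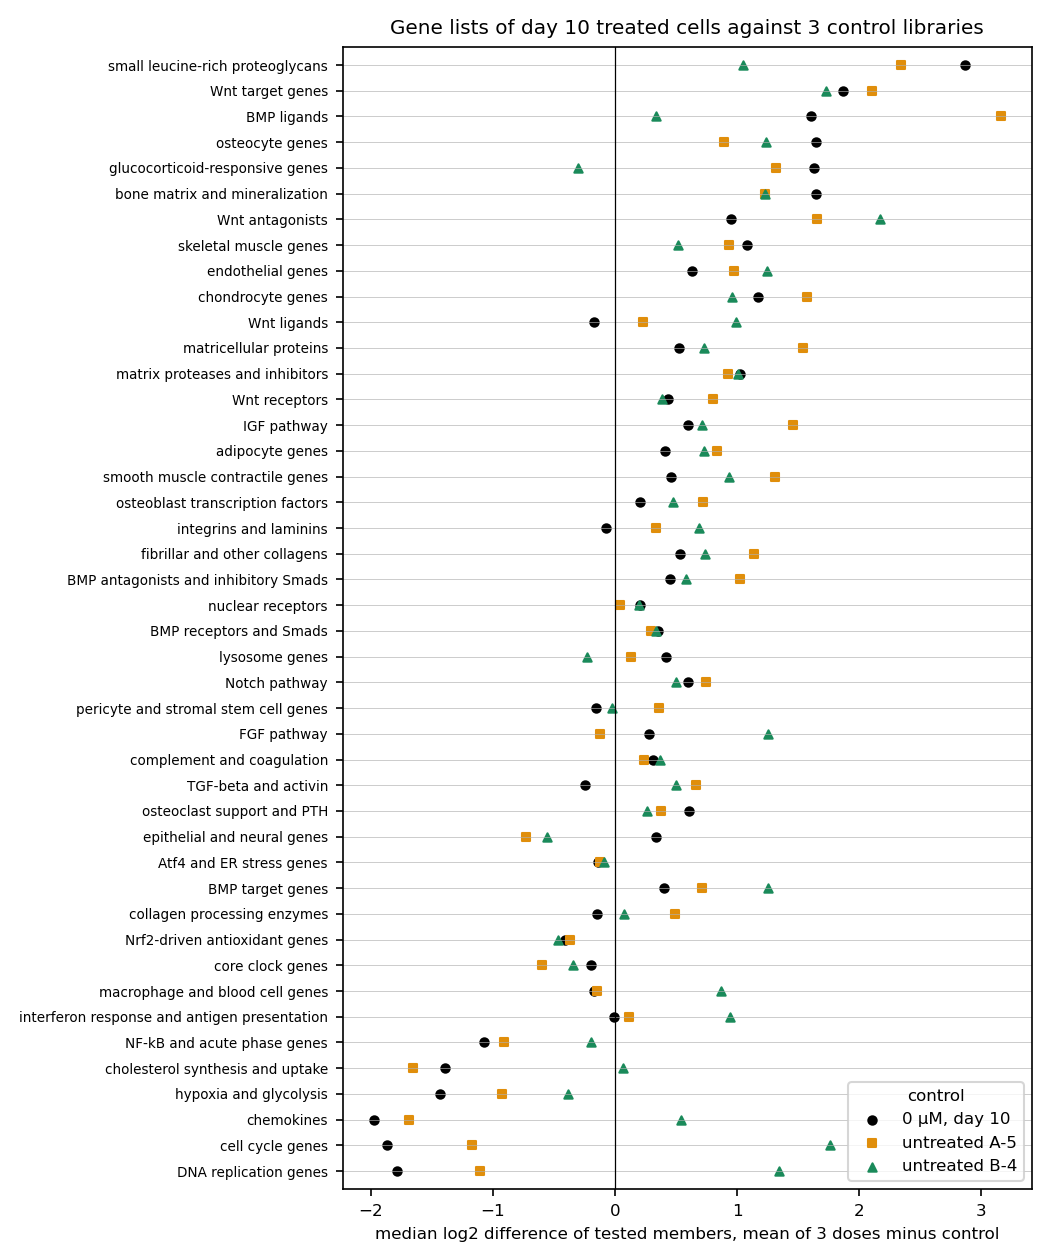
Median log2 difference of each gene list, as the mean of the 3 doses minus the control, against 0 μM of day 10 (black circles), A-5 (orange squares) and B-4 (green triangles). Wnt targets, bone matrix and small proteoglycans are above 0 against every control, while cell cycle genes are at -1.87 against 0 μM and 1.76 against B-4.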

How the data were processed

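The authors deposited 1 table with FPKM values and counts of reads per gene, the counts not normalized, for 10 libraries. The submitters' processing notes name HISAT2 2.0.4 and GATK 3.2-2. The counting program, its use of strand, the genome build and the annotation are not given in the sources used here, so overlapping and antisense genes cannot be told apart. The authors' edgeR comparisons of libraries in the same table, which hold fold changes and p-values, were not used. The table lists 22036 Ensembl genes, of which 22022 were found in GENCODE M21 (GRCm38), the source of positions, and 7547 newly assembled loci. Where 38 genes share a symbol, the more abundant was taken, and 7 listed symbols were matched through synonyms.

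The software was R 4.3.3 with DESeq2 1.42.0, edgeR 4.0.16 and limma 3.58.1. Fits used TMM and filterByExpr, a prior count of 2 for log2 CPM and a Benjamini-Hochberg limit of 0.05. The quasi-likelihood test of 3 doses against 1 control had 2 residual degrees of freedom. An exact permutation test of 3 against 1 cannot go below p = 0.25. The code was run in Python 3.11.15 and R and was tested on simulated data. Members, the 44 gene lists and the tests were chosen with earlier results of these data known.

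The named genes were the 8 largest rises and 8 largest falls among genes averaging 5 CPM or more, the 5 largest gains and 5 largest losses in CPM, Bmp2, Runx2, Sp7, Col1a1, Alpl and Spp1, and up to 4 changed members of each list. They also include up to 3 members of the 8 KEGG pathways with the highest share in each direction, and 4 genes at each end of the difference between 200 and 100 μM. Alternatives were library totals, DESeq2 size factors, other count filters, Ensembl genes only, the untreated libraries as controls, each dose left out, prior counts of 0.5 and 5, fold limits of 1.5 and 4, the mean of the doses, FPKM, DESeq2, limma-trend, no fold limit and glmTreat. Thinning every library to the smallest total and leaving out mitochondrial genes were added after the data were seen.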

Additional observations from a re-analysis of the deposited data

Results flagged for a closer look

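The untreated libraries A-5 and B-4 are not used in the main comparison, and they too differ from 0 μM in many of the genes that changed. Of the 2434 genes that rose on day 10, 972 were more than 2-fold above 0 μM in A-5 (39.9%) and 1464 in B-4 (60.1%). Among all tested genes the shares were 9.86% and 16.3%. Of the 936 genes that fell, 175 were more than 2-fold below 0 μM in A-5 (18.7%) and 767 in B-4 (81.9%), beside 6.36% and 13.5% of all tested genes. These comparisons share the 0 μM library with the main one. The genes were chosen by their level in that library, which by itself can raise these shares. By how much was not tested. The labels give neither library a day or a dose. The names of the day 10 libraries all start with B, as that of B-4 does, and whether the letter marks a day is not stated. What sets A-5 and B-4 apart was not tested.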

How the results depend on the processing

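Against 2434 rises, 936 falls, 1898 edgeR calls higher and 994 calls lower, the numbers moved by more than 1.5 times as follows. Asking for at least 10 counts in every library gave 928 rises and 1067 calls higher. Ensembl genes alone gave 1574 rises. A fold limit of 1.5 gave 1916 falls, and a limit of 4 gave 1182 rises and 178 falls. Log2(FPKM + 1), which changes unit and offset at once, gave 452 rises and 613 falls. No fold limit gave 2285 calls lower, and glmTreat against 2-fold gave 840 calls higher and 417 lower. B-4 as control gave 541 calls lower. Both untreated libraries added to 0 μM gave 543 calls higher and 117 lower. Within 1.5 times, leaving out each dose in turn gave 2223 to 3026 rises, 1014 to 1091 falls, 1451 to 2585 calls higher and 938 to 1147 calls lower. The lone 0 μM library could not be left out. Every other alternative also stayed within 1.5 times. The smallest log2 differences, at the dose nearest the control, changed sign with A-5 as control for Gdf6 -0.0735, Msx2 0.55, Psmb8 0.53, Plau 0.0733, Gsta1 -0.15, Gfap -0.38. With B-4 as control they changed sign for Arnt2 1.01, Egr1 1.05, Actb 0.003, Omd -0.29, Bmp8a -0.23, Grem1 0.0242, Msx2 1.60, Dusp6 0.0482, Ccl5 1.61, Ptgs2 0.0159, Irf1 0.0349, Ifit1 1.53, Ifit2 0.76, Psmb8 1.24, Plau 1.35, Idi1 0.21, Insig1 0.24, Cdc20 1.56, Aurkb 2.53, Kif20a 1.94, Birc5 1.91, Mcm5 1.74, Mcm10 2.22, Uhrf1 1.09, Tk1 1.70, Bhlhe41 -0.27, Sult1a1 -0.67, Gsta1 -0.75, Shmt2 0.0776, Ctsb -0.21, Ckm -1.42, Kitl -0.41, Nt5e -0.34, Ly6a 0.14, Gfap -0.51, Clca3a1 -0.0834, Amy1 -0.79, Lig1 1.22, Pole 2.22, Exo1 2.89, Pold1 0.10, Bard1 1.87, Eme1 1.47, Rad54l 1.99, Fanca 2.35, Fancd2 3.10, Espl1 2.29, E2f2 0.62, Fdps 0.23, Raver1 0.92. Flna and Col1a1, which did not pass the rule against 0 μM, turned as well. They had 0.0261 and 1.09 with A-5, and 0.33 and 1.41 with B-4. Mean differences against B-4 kept their sign for Ptgs2 -0.2, Irf1 -0.05, Insig1 -0.03, Fdps -0.02, Bmp8a 0.74 and Clca3a1 0.70. So did that of Gsta1 against A-5, at 0.17. Other means changed sign where the smallest difference did not. Against B-4 these were Acat2 0.13, Txnrd1 0.02, Lrp1 0.09, Npr3 0.53, Gdf6 -0.08, Lrp5 -0.04, Fn1 -0.08 and Col27a1 -0.0035. Against A-5 they were Cd36 -0.26 and Npr3 0.29. List medians changed sign with A-5 for TGF-beta and activin 0.66, FGF pathway -0.13, collagen processing enzymes 0.49, integrins and laminins 0.34, pericyte and stromal stem cell genes 0.36, and with B-4 for TGF-beta and activin 0.50, collagen processing enzymes 0.077, integrins and laminins 0.69, chemokines 0.54, cholesterol synthesis and uptake 0.0645, cell cycle genes 1.76, DNA replication genes 1.35, glucocorticoid-responsive genes -0.30, lysosome genes -0.23, macrophage and blood cell genes 0.87. The Wnt ligand median also changed sign, to 0.23 with A-5 and 0.99 with B-4. So did those of the interferon list (0.12 and 0.94) and of epithelial and neural genes (-0.73 and -0.56). Asking for 10 counts in every library, the medians were osteocyte genes -0.12, BMP ligands -0.0457, FGF pathway -0.26. The FGF pathway had -0.16 when thinned, -0.0065 by log2(FPKM + 1), and -0.46 to 0.37 when each dose was left out. No paired analysis was possible because the control has 1 library. The cause was not tested.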

Other observations

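A list of 24 immediate-early genes was written after the values were seen. Of these, 13 fell and 2 rose, the latter Nr4a3 and Atf3, with a median log2 difference of -1.51. Of all tested genes 5.47% fell and 14.2% rose. Against A-5 13 of the list fell and 1 rose, with a median of -1.55, and against B-4 0 fell and 5 rose, with a median of 0.55. The GO terms with the highest share of rises were virion assembly, with 18 of 36 genes, and DNA integration, with 27 of 58, beside 10.6% of all tested genes with a GO process. Newly assembled loci made up 30 and 53 of the tested members, and of all 2889 tested loci of that kind 915 rose. The GO terms were counted against 0 μM only.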
